A study of Mus musculus with 29 samples.

Results

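Of 19294 beta chain (TRB) clonotypes whose CDR3 was 13 to 15 letters long, 589 carried hydrophobic amino acids at both position 6 and position 7, counted from the conserved first cysteine as position 1. Hydrophobic meant 1 of the 8 residues A, F, I, L, M, V, W and Y, and clonotypes were told apart by V segment, J segment and CDR3. These 589 members were 3.05% of the distinct 13 to 15 letter clonotypes and held 4833 of their 210517 counts, which is 2.30%. They made up 2.17% of all 27097 TRB clonotypes kept. The counts came from T cell receptor libraries of brain and ovary metastases of an experimental Braf-mutated mouse melanoma. The study asked whether an antibody against PD-L1 given ahead of MAPK inhibition is of benefit.

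The 5 treatments were the lead-in combination (anti-PD-L1 first, then trametinib with it, day 3), the concurrent combination (trametinib plus anti-PD-L1 and no lead-in, day 3), trametinib (day 3), the lead-in alone (day 0) and no treatment (day 0, named vehicle in the titles). All groups share the same tumour model; strain, age and the melanoma line were not used here. PD-L1 binds PD-1, an inhibitory receptor of T cells, and trametinib blocks the kinase MEK. Ovary had 10 samples, 2 per treatment, and brain had 19, with 4 per treatment and 3 untreated. Titles give each sample a number and, for all but 1 brain sample, a part of that number. Brain had 2 numbers per treatment and ovary 1, and 5 numbers were sampled in both organs. Whether each number stands for an animal is not stated in the labels, and the p-values below therefore reflect spread between numbers, which may be technical. In the ovary, samples held 10937 to 37387 counts of 13 to 15 letter TRB clonotypes, and in the brain 196 to 5047. The number of member clonotypes per sample ran from 24 to 81 in ovary and from 1 to 35 in brain. The reason for the lower brain counts was not tested. Fewer T cells, less receptor RNA per cell and lower sequencing depth cannot be told apart in these bulk samples.

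The CDR3 of the beta chain is made where a V, a D and a J segment join, and its centre lies over the peptide that the receptor contacts. Positions 6 and 7 sit at that centre. In mouse work, hydrophobic residues there have been linked to receptors that react with self peptides during T cell development, and this has been used as a sequence index of self-reactivity. The V segment supplies the first letters of the CDR3 and the J segment the last, so positions 6 and 7 can fall at or near the added and D-encoded residues. Where the V-encoded letters ended was not determined here.

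The sequences below are some of the members that results turn on. They were drawn from the clones of highest share in an organ or in a treatment of an organ, and those found in the most numbers. The rest are given with their results. Letters 6 and 7 are in capitals.
number 14, brain, TRBV5 with TRBJ2-5: cassqALqdtqyf
number 12, brain and ovary, TRBV13-1 with TRBJ2-4: cassdAAgqntlyf
number 1, ovary and brain, TRBV13-2 with TRBJ2-7: casgdALggrneqyf
number 12, ovary and brain, TRBV14 with TRBJ2-1: casssAFyaeqff
number 13, ovary, TRBV5 with TRBJ2-3: cassqVLgggetlyf
number 10, ovary, TRBV1 with TRBJ2-3: ctcsaAWaetlyf
number 3, ovary, TRBV13-2 with TRBJ1-6: casgtAYnsplyf
numbers 1, 3 and 12, TRBV12-1 with TRBJ2-1: casspYWggyaeqff
numbers 1, 10 and 14, TRBV12-1 with TRBJ2-1: casslYWgnyaeqff
Of the 9 sequences, 4 carry alanine at position 6 followed by leucine, alanine or phenylalanine, 3 carry tryptophan at position 7, and 8 use a TRBJ2 segment. The sequences with AW and AY carry alanine at position 6 as well.

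Alanine at position 6 and tryptophan at position 7 were the letters most often found in members. Alanine stood at position 6 in 236 members (40.1%), against 6.51% of all 13 to 15 letter clonotypes. Tryptophan stood at position 7 in 211 members (35.8%), against 6.86% of all. Since every member was chosen for hydrophobic letters there, these shares describe the mixture within the rule. The most frequent pair was AW with 80 members, then YW with 56, AL with 55, AA with 40 and VW with 34. All 56 YW members and all 34 VW members used a TRBJ2 segment, as did 73 of the 80 AW members, whereas 23 of the 40 AA members did. By counts the order of these 5 pairs differed, with AL holding 1210 counts, AW 663, AA 401, YW 289 and VW 169.

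The rule did not use the letters next to the pair. Glycine stood at position 8 in 45.8% of members, against 35.1% of the other 13 to 15 letter clonotypes. A hydrophobic letter stood at position 8 in 13.1% of members, against 21.0% of the others. Aspartate stood at position 5 in 27.8% of members, against 11.2% of the others. Of the 164 members with it, 112 used TRBV13-2, 26 used TRBV13-1 and 13 used TRBV13-3. These shares are given as descriptions over clonotypes, which share numbers and segments.

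The share of clonotypes hydrophobic at both positions lay below the product of the shares at each. Over all numbers, 20.9% of clonotypes were hydrophobic at position 6 and 20.8% at position 7, whose product is 4.35%, against the observed 3.05%. The ratio of observed share to product was 0.67 ± 0.12 (SD, n = 10 numbers), with a lowest value of 0.427 and a highest of 0.825. All 10 numbers lay below 1. The neighbouring pair of positions 7 and 8 had a ratio of 0.64 ± 0.14, positions 5 and 6 had 0.98 ± 0.07, positions 8 and 9 had 0.91 ± 0.13, and positions 9 and 10 had 1.18 ± 0.30. The ranges of these last 3, 0.879 to 1.09, 0.627 to 1.06 and 0.338 to 1.35, each held 1. At positions 9 and 10 the lowest value was that of number 8, and the other numbers lay above 1. No test was made of these ratios.

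**Figure D1:**
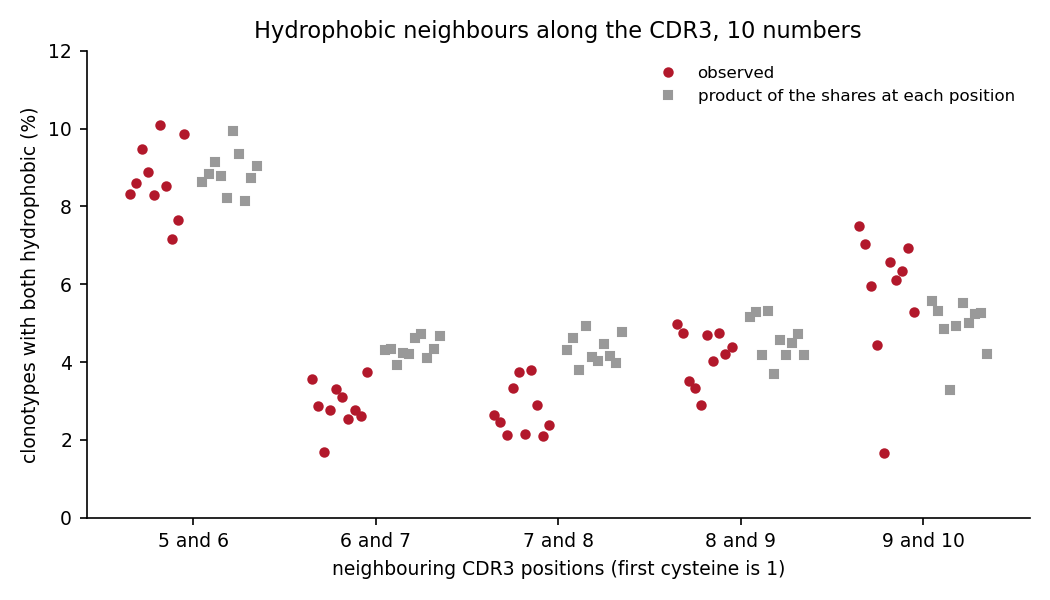
Share of 13 to 15 letter TRB clonotypes with hydrophobic letters at both of 2 neighbouring CDR3 positions (red circles, 1 per number) beside the product of the shares at each position (grey squares), in percent. At positions 6 and 7 the observed share lies below the product in all 10 numbers, while at positions 5 and 6 the 2 clouds overlap.

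Members formed a larger part of the clonotypes using TRBJ2 segments than of those using TRBJ1 segments. TRBJ2 held 463 members among 12642 clonotypes (3.66%) and TRBJ1 held 126 among 6652 (1.89%). Over the 10 numbers the shares were 3.33% ± 0.65 for TRBJ2 and 2.08% ± 1.00 for TRBJ1 (SD), with TRBJ2 higher in 8 numbers. The members with tryptophan at position 6 or 7 were 1.68% ± 0.71 of TRBJ2 clonotypes and 0.12% ± 0.17 of TRBJ1 clonotypes, higher for TRBJ2 in 9 numbers and equal in 1, number 7, where no member had it. The members without tryptophan were 1.64% ± 0.46 of TRBJ2 clonotypes and 1.96% ± 1.06 of TRBJ1 clonotypes, higher for TRBJ2 in 5 of 10 numbers. In all, 242 of the 256 members with tryptophan used TRBJ2. As background, the second mouse D segment, TRBD2, lies after the TRBJ1 cluster and joins to TRBJ2, and its sequence encodes tryptophan in a reading frame. The D segment of a clonotype was not used here, and its part in the difference was not tested. The comparison of the clusters was made after the segments had been tested singly, so it has no p.

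Tested singly, 1 of 12 TRBJ segments had a higher member share than the other clonotypes (8.33% of the segments) and 3 had a lower one (25%). The test was an exact two-sided sign-flip over numbers, with Benjamini-Hochberg adjustment over the 12 segments and a threshold of 0.05. TRBJ2-5 held members at 5.51% ± 3.27 of its clonotypes, against 2.63% of the rest (difference 2.88 percentage points, higher in 10 of 10 numbers, exact p = 0.00195, adjusted p = 0.0234). The highest number, 14.3%, was number 7 with 14 TRBJ2-5 clonotypes, and the others lay between 2.94% and 6.40%. Without number 7 the TRBJ2-5 difference was 1.81 points (exact adjusted p = 0.0469). It missed the threshold by share of counts (4.68 points, exact adjusted p = 0.0508) and with alanine left out of the hydrophobic set (1.35 points, exact adjusted p = 0.0674). TRBJ1-5 held 0.86% ± 1.09, against 2.92% (difference -2.05, lower in 9 of 9 numbers, exact adjusted p = 0.0234), with no member in 5 of the 9. At a minimum of 3 clonotypes, which adds number 8, its difference was 1.19 points (exact adjusted p = 1). TRBJ1-2 held 1.58% ± 1.11, against 2.99% (difference -1.40, lower in 9 of 10, exact adjusted p = 0.0234). TRBJ2-2 held 1.29% ± 1.29, against 2.99% (difference -1.70, lower in 9 of 10, exact adjusted p = 0.0410), and it missed the threshold in 8 of the 10 settings with a number left out. TRBJ1-3, at 1.22% ± 1.93 against 2.98%, did not pass (difference -1.77, lower in 9 of 10, exact adjusted p = 0.0516), nor did TRBJ2-7, at 3.54% ± 1.16 against 2.74% (difference 0.80, exact adjusted p = 0.105). With tryptophan taken out of the hydrophobic set, a setting added after the data had been seen, no TRBJ segment passed, and TRBJ2-5 had a difference of 2.20 points (exact adjusted p = 0.117). In brain samples alone its difference was 2.27 points (exact adjusted p = 0.206).

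Among V segments, members were most frequent with TRBV13-2. Of 19 segments tested in the same way, 1 was higher (5.26%) and 4 were lower (21.1%). TRBV13-2 carried 133 members among 2224 clonotypes. By number its member share was 7.87%, 6.13%, 5.71%, 5.0%, 9.09%, 5.33%, 8.42%, 4.43%, 4.75% and 6.54% in numbers 1, 3, 6, 7, 8, 10, 11, 12, 13 and 14. The share of the clonotypes with other V segments averaged 2.48%, and TRBV13-2 was higher in 10 of 10 numbers (mean 6.33% ± 1.62, difference 3.85 points, exact p = 0.00195, the smallest 10 numbers allow, adjusted p = 0.0186). The next highest difference was that of TRBV12-1, 5.49% ± 4.49 against 2.80%, which did not pass (exact adjusted p = 0.204). It supplied 17 of the 56 YW members, its commonest pair.

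The TRBV13-2 members were mostly those with alanine at position 6 (92 of 133). So were those of TRBV13-1 (23 of 34) and TRBV13-3 (12 of 20), segments that were not called higher. Members with alanine at position 6 were 4.14% of TRBV13-2 clonotypes and 0.844% of clonotypes with other V segments. Members without it were 1.84% and 1.83%. Alanine at position 6, whatever followed it, was found in 18.7% of TRBV13-2 clonotypes and 4.93% of the others, and aspartate at position 5 in 50.7% and 6.66%. Whether the V segment itself encodes these letters was not tested. With alanine taken out of the hydrophobic set, the TRBV13-2 difference was -0.05 points and no V segment passed.

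TRBV2 held 7 members among 561 clonotypes (1.25%) and had the lowest mean share over numbers of the 19 segments tested. Over all clonotypes TRBV29 stood as low, with 21 members among 1732 (1.21%). TRBV29 was lower in 9 of 10 numbers, with 10.5% in number 8, and did not pass (difference -1.11 points, exact adjusted p = 0.513). The share of TRBV2 over numbers was 0.68% ± 0.93, against 2.97% (difference -2.29 points, lower in 10 of 10 numbers, exact adjusted p = 0.0186). TRBV2 held no member in numbers 6, 7, 8, 11, 12 and 14, with 13, 5, 6, 23, 100 and 43 clonotypes. A number with few clonotypes of a segment can easily hold no member, and it then counts as lower. This limits each call of a lower segment, TRBV or TRBJ. TRBV4 was lower by -2.02 points, TRBV17 by -1.70 and TRBV15 by -1.41 (exact adjusted p = 0.0445 each). Each segment was set against all others, TRBV13-2 included. With TRBV13-2 left out of the table, a setting added after the data had been seen, TRBV2 still passed (difference -1.86, exact adjusted p = 0.0352). TRBV4, TRBV17 and TRBV15 then had differences of -1.57, -1.27 and -0.998 points (exact adjusted p = 0.134 each). Each of the 3 also missed the threshold in 9 of the 10 settings with a number left out. Without clonotypes of a single count no V segment passed, with TRBV13-2 at a difference of 3.27 points and TRBV2 at -1.77 (exact adjusted p = 0.0557 each).

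**Figure D2:**
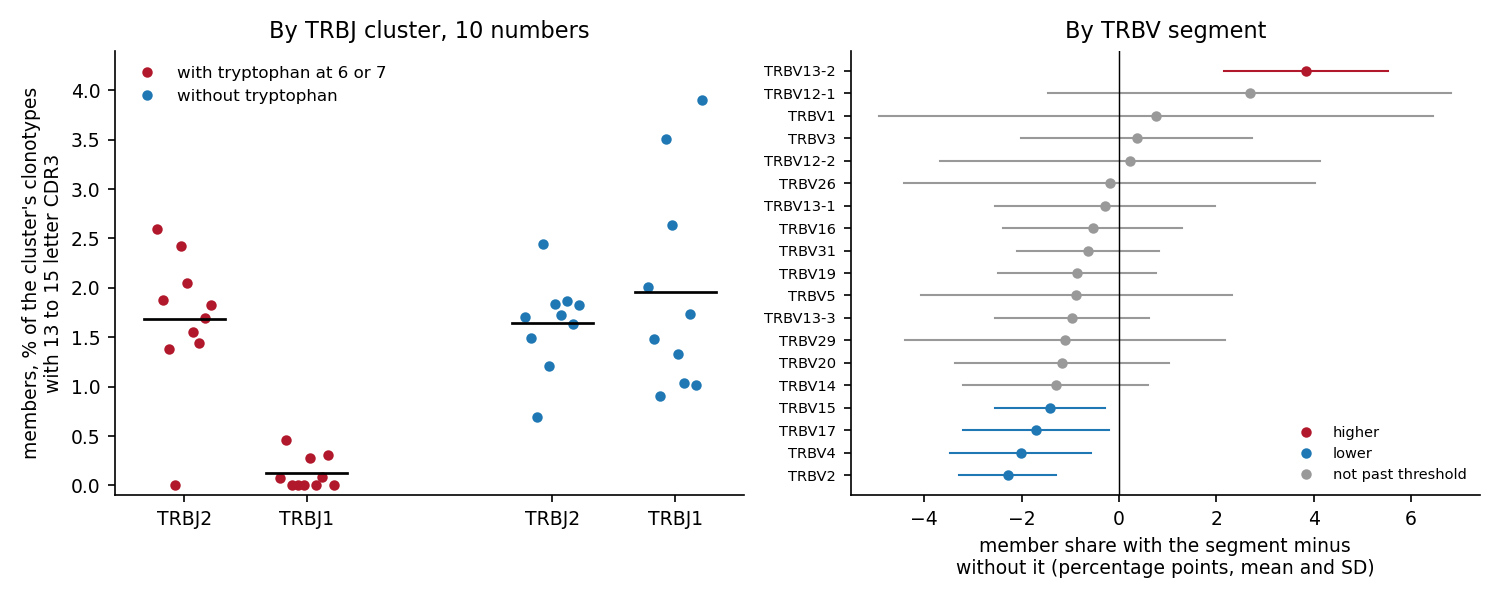
Left, members with tryptophan at position 6 or 7 (red) and without it (blue) as a percentage of the 13 to 15 letter clonotypes of the TRBJ2 and TRBJ1 clusters, 1 point per number with the mean as a line. Right, the member share with a TRBV segment minus the share without it, in percentage points, as mean and SD over numbers, with TRBV13-2 the 1 segment called higher and TRBV15, TRBV17, TRBV4 and TRBV2 called lower.

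No CDR3 length passed the test. Members were 3.47% of clonotypes of 15 letters, 2.96% of those of 14 and 2.67% of those of 13. The differences from the other lengths were 0.33, -0.26 and -0.07 percentage points, and 0 of 3 passed in either direction (0% called, lowest exact unadjusted p = 0.293).

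In brain, the member share of counts was highest on average in the lead-in combination. Its samples held 2.86% and 3.10% (parts of number 12) and 7.77% and 5.69% (number 14). The concurrent combination held 3.73% and 3.28% (number 1) and 1.44% and 1.70% (number 6). Trametinib samples held 3.54% and 2.86% (number 13) and 2.44% and 1.15% (number 8). The lead-in alone held 0.510% and 4.42% (number 10) and 1.17% and 0.420% (number 11), and untreated samples held 2.36% and 0.851% (number 3) and 2.22% (number 7). Only number 14 lay above every sample of the other treatments, while number 12 lay within their range. The 2 brain parts of number 10 differed most, but part 1 rests on 1 count of 196 (exact Clopper-Pearson 95% interval 0.0129% to 2.81%, counting error only).

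The shares of counts averaged 4.85% ± 2.33 for the lead-in combination, 2.54% ± 1.14 for the concurrent one, 2.50% ± 1.01 in trametinib, 1.63% ± 1.89 in the lead-in alone (SD, n = 4 samples each) and 1.81% ± 0.83 in untreated samples (n = 3). The shares of distinct clonotypes were closer together, at 3.26% ± 1.12, 2.68% ± 1.12, 2.66% ± 0.62, 2.35% ± 0.99 and 2.32% ± 0.42 in the same order. Tests were exact two-sided permutations over 10 numbers, adjusted over 8 tests. Samples with a lead-in were 1.21 percentage points of counts higher within day (exact p = 0.244, adjusted p = 0.703), and without number 14 the difference was 0.049. On day 3 this contrast sets the lead-in combination against trametinib and the concurrent combination pooled. Samples with any anti-PD-L1 were 0.56 points higher within day (exact p = 0.633, adjusted p = 0.776) and -0.02 without number 14. With trametinib the share was 1.53 points higher than with none (exact p = 0.138, adjusted p = 0.703) and 0.84 points without number 14, though day and trametinib cannot be told apart. Differences between the 5 treatments made up 53.1% of the sum of squares over numbers (exact p = 0.351, adjusted p = 0.703), and 29.1% without number 14. For clonotypes the same 3 differences were 0.30, 0.14 and 0.47 points (exact p = 0.556, 0.756 and 0.286). The first was 0.0053 points without part 1 of number 14, 0.117 without part 2 of number 12 and 0.097 without part 2 of number 10. None of the 8 passed.

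Both combinations received trametinib with anti-PD-L1, and the lead-in sets them apart. With the lead-in against without it, their member shares were 4.85% ± 2.65 against 2.54% ± 1.37 of counts (SD, n = 2 numbers each, exact permutation p = 0.667) and 3.26% ± 0.64 against 2.68% ± 1.36 of clonotypes (exact p = 0.667). The difference in counts, 2.31 points, was 0.44 without number 14 and 4.19 without number 12. An exact test of 2 numbers against 2 cannot go below 0.333. Number 14's shares rested in part on the TRBV5 clone cassqALqdtqyf, which held 190 and 90 counts (3.76% and 3.08%) and ranked 3 and 4 by size among the 13 to 15 letter clonotypes of the parts. Without it the member shares of number 14 were 4.16% and 2.69%.

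Each treatment had 1 number in ovary, and no contrast of treatments was tested there. Member shares of counts were 1.67% and 2.56% in the lead-in combination (number 12), 4.32% and 2.41% in the concurrent combination (number 1), 2.39% and 1.44% in trametinib (number 13), 1.57% and 1.90% in the lead-in alone (number 10) and 1.76% and 1.31% in untreated samples (number 3). Part 1 of number 1 stood highest and carried 425 counts of casgdALggrneqyf, without which its share was 1.90%. That clone had 54 counts in part 2, and 5 and 6 counts in the brain parts of number 1. The ovary shares of distinct clonotypes ran from 1.96% to 3.60%, a range inside that of brain samples (1.41% to 4.74%).

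**Figure D3:**
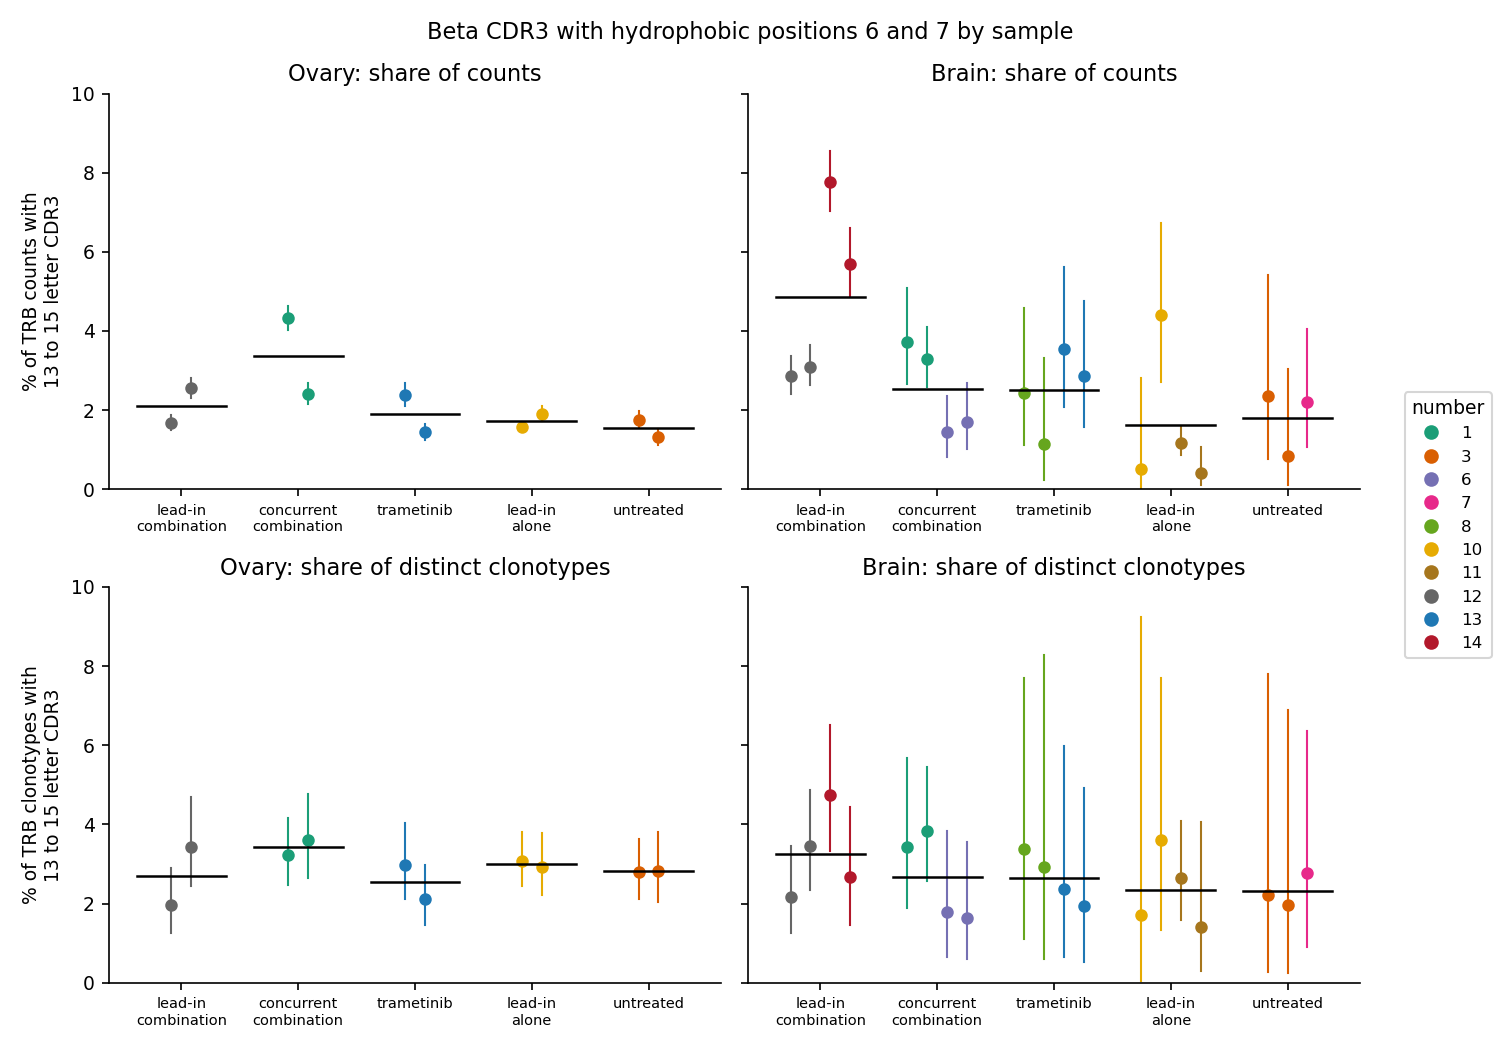
Member share of 13 to 15 letter TRB counts (top) and of distinct clonotypes (bottom), in percent, per sample with exact 95% intervals (counting error only), coloured by number, with lines at the mean of each treatment. The brain samples of number 14 stand highest by counts (7.77% and 5.69%), and by clonotypes the treatments overlap.

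Set against brain over the 5 numbers sampled in both organs, the ovary held members at 2.13% ± 0.72 of counts and the brain at 2.75% ± 0.75 (difference -0.62 points, exact permutation p = 0.206, two-sided, and 0.413 when adjusted over 2 measures). The ovary was lower in 5 of 5 numbers, and paired by number the exact sign-flip p was 0.0625, the smallest 5 pairs allow. The difference was -0.23 points without brain part 2 of number 10, -1.01 without its part 1, and -0.082 with tryptophan and tyrosine left out of the hydrophobic set. By distinct clonotypes the ovary held 2.90% ± 0.34 and the brain 2.67% ± 0.62 (difference 0.22, exact p = 0.508). Every ovary sample held more counts than every brain sample, and with all drawn down to 196 counts the clonotype difference was -0.26 (exact adjusted p = 0.508).

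In ovary the mean size of member clones lay below that of the other clones in 9 of 10 samples, but the medians went both ways. The design was too small to pass the test. The mean counts per clonotype there were 7.99 ± 2.72 for members and 11.1 ± 2.3 for other 13 to 15 letter clonotypes (SD, n = 10 samples). The median was lower for members in part 1 of numbers 13 and 3. It was higher in part 2 of number 13 and in both parts of number 12, and equal in the other samples. Clonotypes of a single count made up 29.2% ± 7.1 of members and 29.7% ± 2.3 of the others. The sample whose log2 ratio of the means lay above 0 was part 1 of number 1, with its clone of 425 counts (0.43). Over the 5 numbers the log2 ratio was -0.52 ± 0.34, below 0 in 5 of 5 (exact sign-flip p = 0.0625, the smallest possible, adjusted p = 0.125), so it could not pass. Clonotypes with 1 hydrophobic letter at positions 6 and 7 averaged 11.2 ± 3.02 counts and those with none 10.97 ± 2.19, against the 7.99 of members.

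In brain the mean sizes were 3.74 ± 3.20 counts for members and 3.62 ± 1.46 for others (SD, n = 19 samples). The log2 ratio over 10 numbers was -0.26 ± 0.72, below 0 in 7 (exact p = 0.283). By treatment it averaged 0.54 ± 0.55 for the lead-in combination, -0.09 ± 0.21 for the concurrent one, -0.18 ± 0.94 in trametinib, -1.11 ± 0.98 in the lead-in alone and -0.49 ± 0.67 in untreated samples. These SDs are over samples (n = 4 each, 3 untreated), which come from 2 numbers per treatment. These values rest on few members, 1 to 35 per sample. With the largest member of each sample left out, a setting added after the data had been seen, the ratio was -0.61 in brain (exact adjusted p = 0.0156) and -0.97 in ovary. That setting takes the largest clone from members alone, so it lowers the ratio by construction.

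**Figure D4:**
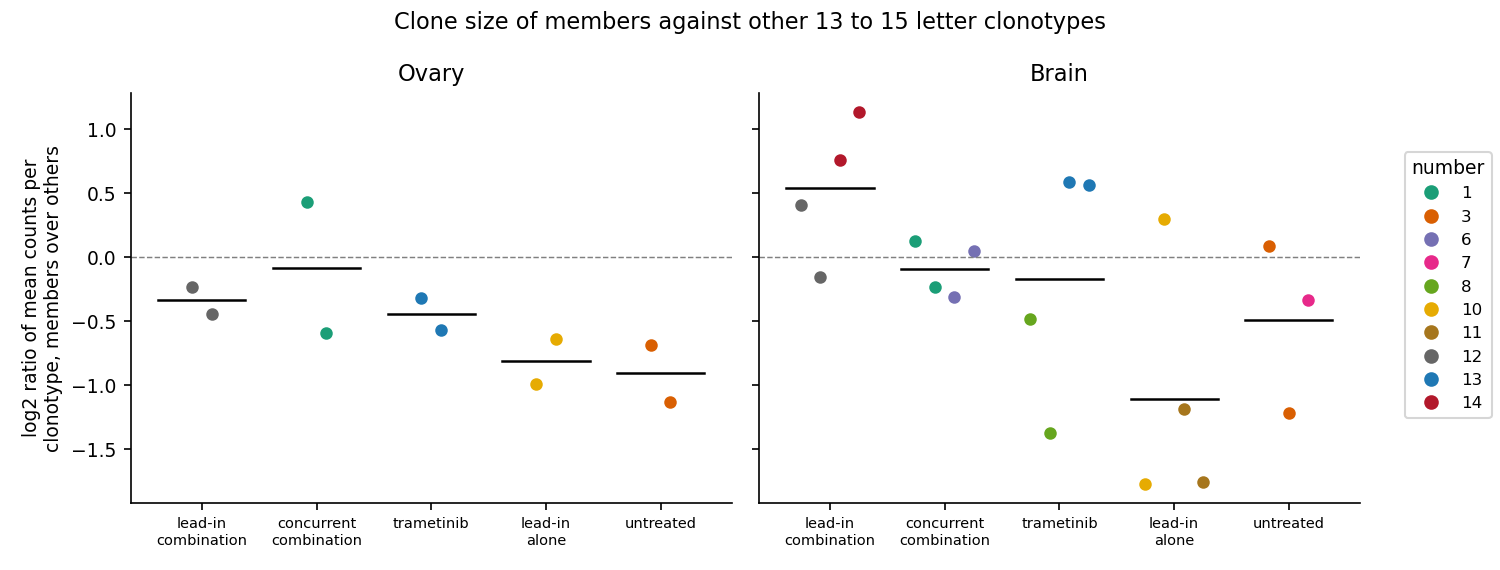
Log2 ratio of mean counts per clonotype, members over other 13 to 15 letter TRB clonotypes, per sample and treatment, coloured by number, with the mean of each treatment as a line. In ovary 9 of 10 samples lie below 0, and in brain the samples lie on both sides, with those of number 14 at 0.76 and 1.13.

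Most members were small. Summed over samples, 191 of the 589 had a single count, the median was 3, 9 had 100 or more, and the highest had 490. The 10 largest held 39.1% of member counts. By sample, single counts made up 46.8% ± 28.8 of members and 37.8% ± 6.2 of other clonotypes in brain (SD). The shares in ovary were 29.2% and 29.7%. Some members of a single count differed by 1 letter from a large member with the same V and J segments. Examples are cassqALqdtryf beside cassqALqdtqyf (280 counts) and cassiAWggyeryf beside cassiAWggyeqyf (142 counts). Such near copies were counted as separate clonotypes, and their origin was not tested. Members were 3.01% of all distinct 13 to 15 letter clonotypes in ovary and 3.01% in brain. Among clonotypes with 1% or more of a sample's 13 to 15 letter counts, 2 of 92 in ovary and 8 of 340 in brain were members. At the low depth of some brain samples a few counts suffice for this: casslVWgkdtqyf (TRBV12-1 with TRBJ2-5) reached 1.89% with 4 counts in untreated part 1 of number 3, and casgdLYsgntlyf (TRBV13-2 with TRBJ1-3) reached 1.104% with 5 counts in part 2 of number 10. In trametinib brain, cgardVYssyeqyf (TRBV20 with TRBJ2-7) had 9 counts, 1.84% of part 2 of number 13. In concurrent brain, casgdAWtaetlyf (TRBV13-2 with TRBJ2-3) had 11 and 9 counts in the parts of number 1, and 5 counts in an ovary part of the same number.

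Some of the larger members recurred within a number. In contrast, casslVWgkdtqyf, casgdLYsgntlyf and cgardVYssyeqyf, with 4, 5 and 9 counts, were each found in 1 sample. The TRBV13-1 clone cassdAAgqntlyf of the lead-in combination had 43 and 32 counts in the ovary parts of number 12 (0.249% and 0.210%), and 66 and 56 in its brain parts (1.38% and 1.18%). The TRBV14 clone casssAFyaeqff had 175 counts (1.15%) in ovary part 2 of number 12 and none in part 1, with 3 and 11 counts in the brain parts. The ovary members of highest mean share in the other 3 treatments were cassqVLgggetlyf in trametinib (77 and 39 counts), ctcsaAWaetlyf in the lead-in alone (25 and 82) and casgtAYnsplyf in untreated samples (78 and 17). Each of these 3 was found in both ovary parts of its number and in no brain sample.

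Few clonotypes were shared between numbers, members and others alike. Of 589 members, 12 (2.04%, exact 95% interval 1.06% to 3.53%) were found in 2 or more numbers, against 605 of 18705 other 13 to 15 letter clonotypes (3.23%, 2.99% to 3.50%). The interval of the members contains that of the others, and both treat clonotypes as independent. The most numbers for a member was 3, and for another clonotype 9. The 2 members in 3 numbers, casspYWggyaeqff and casslYWgnyaeqff, both joined TRBV12-1 to TRBJ2-1 and were 15 letters long. Another sequence of the same segments, casslYWggyaeqff, was found in 2 numbers, as were casslWAsqntlyf (TRBV12-2 with TRBJ2-4) and casgdAWgdtqyf (TRBV13-2 with TRBJ2-5). Their counts were low, with 1 to 29 in a sample.

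Brain members were recovered in the ovary of the same number at 24.0% ± 11.5, against 31.9% ± 8.3 for other brain clonotypes (SD, n = 5 numbers, 21 of 100 brain members). The difference was -7.95 percentage points ± 8.88, higher for members in 1 of 5 numbers (exact sign-flip p = 0.125, smallest possible 0.0625), and did not pass. It was -23.5 points with alanine left out of the hydrophobic set (exact p = 0.0625) and -4.72 with tryptophan and tyrosine left out (exact p = 0.875). By number the members recovered were 8 of 40 in number 1, 1 of 4 in number 3, 3 of 7 in number 10, 8 of 41 in number 12 and 1 of 8 in number 13. Recovery was not matched for clone size.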

How the data were processed

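Per the labels' protocols, total RNA (AllPrep and mirVana kits) went into QIAseq Immune Repertoire libraries. The authors deposited 1 table of whole-number counts per clonotype and sample, not normalized. Not given in the sources used here are the aligner, the clonotype caller and whether counts are reads or molecules. GRCh38, a human build, is named by the submitters' processing notes, so no coordinates are given. Intervals cover counting error only.

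Of 27517 TRB rows, 133 with an unresolved residue and 287 not starting with cysteine were left out, 0.204% of TRB counts. Among the latter, 188 were 13 to 15 letters long and 5 had the pair. The 13 to 15 letter rows kept held 72.7% of TRB counts. Of the members' V names, 22 of 22 single names matched RefSeq symbols, and 1 was a joined name. Before testing, parts were averaged within their number. Segments and lengths needed 5 clonotypes in at least 8 numbers. Clonotypes, segments and residue pairs were named by a rule: the 3 of highest share per organ, the largest per organ and treatment, up to 5 in the most numbers, segments past the threshold with the extremes of each family, and the 5 commonest pairs. The members, lists and rule were chosen with earlier results of these data known. Families of tests were adjusted by Benjamini-Hochberg. Alternatives varied the residue set, length window, filters, depth, samples left out and the unit of replication.

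To check the pairing of organs by number, the deviations of TRBV usage from the organ means were correlated between same-numbered samples, at 0.411, 0.458, 0.347, 0.513 and 0.268 for numbers 1, 3, 10, 12 and 13 (27 segments, which are not independent), all above 0.1, so numbers were taken to pair the organs. No pair of sample columns was identical. Python 3.11.15, numpy 2.4.6, pandas 2.3.3, scipy 1.17.1 and matplotlib 3.10.9 were used. The test of V segments was checked on simulated member labels, and the exact tests on small examples worked by hand.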

Additional observations from a re-analysis of the deposited data

How the results depend on the processing

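The brain contrasts passed under no alternative, with adjusted p from 0.254 to 1, and depth limits them: brain samples hold as few as 1 member. With alanine taken out of the hydrophobic set, counts differed by -0.60 points with the lead-in, -0.43 with anti-PD-L1 and -0.59 between the lead-in and the concurrent combination, and clonotypes by -0.39, -0.11 and -0.62. The anti-PD-L1 difference in clonotypes was -0.010 with 12 to 16 letters. With a sample or number left out it ran from -0.13 (without number 13) to 0.36, that in counts from -0.025 (without number 14) to 0.98, and the clonotype difference between the combinations from -0.38 (without number 6) to 1.54. Drawn down to 196 counts, ovary minus brain in clonotypes was -0.26. The replicate block, with organs paired by number, gave -0.62 points of counts (exact adjusted p = 0.125) and 0.22 of clonotypes (exact adjusted p = 0.25) and changed no call. Of V segments, 1 passed at a minimum of 10 clonotypes, 0 without alanine, 0 without single-count clonotypes, 1 without TRBV13-2, and 2 to 3 with a number left out. Of J segments, 2 passed at a minimum of 3 clonotypes, 7 without alanine and 7 without single counts (3 of the main 4 among each), 1 without tryptophan and tyrosine, and 0 without tryptophan. Without single counts 1 length passed, 15 letters (0.85 points, exact adjusted p = 0.0117). The TRBV13-2 difference was -0.055 without alanine. TRBJ1-5 was 1.19 at a minimum of 3 clonotypes, and TRBJ2-7 -0.25 without tryptophan and tyrosine and -0.14 without tryptophan. The difference for 13 letters was 0.93 by counts, 0.32 without tryptophan and tyrosine, 0.082 in brain alone, and up to 0.061 with a number left out, and that for 15 letters -0.23 without tryptophan and tyrosine. The brain clone size ratio was -0.61 (exact adjusted p = 0.0156) with the largest member left out. That setting takes a clone from members alone and so lowers the ratio by construction. Causes were not tested.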
